A study of Rattus norvegicus with 24 samples.

Results

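The amygdala of rats given the higher dose of MK-801 was compared with the amygdala of rats given saline on 2 of the 24 arrays of the series, a pair in which the dyes of treated and saline RNA were swapped. The arrays were chosen by their titles, which name the amygdala, saline and the high dose, and not by any measured value. Each array held treated and saline RNA of the region in 2 colours, and the sign was turned on the array where treated RNA carried Cy3, so that a positive log2 ratio always means more signal after MK-801. Male Wistar rats, an outbred albino strain with no modified gene named in the labels, received an intraperitoneal injection of saline or of MK-801 at 0.16 mg/kg, called the high dose, or at 0.08 mg/kg, called the low dose, and brains were removed 40 min later. The design text gives 9 rats, 3 of them given saline, and an age of 10 weeks, while the sample labels give 9 weeks. The same design was applied to 6 dissected regions, the others being cortex, hippocampus, hypothalamus, midbrain and ventral striatum, each at 2 doses and on 2 arrays. How many rats gave the RNA on an array is not in the labels, nor is it said there if the arrays of a pair carry separate extracts. A pair was therefore counted as 1 replicate, no test was possible within the amygdala, and the p-values given below measure the spread between regions, which may be technical. The regions were cut from the brains of the same rats, so they are not independent animals, and p-values over regions say nothing of the spread between rats. Both doses may also share saline RNA.

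MK-801 (dizocilpine) enters and blocks the open channel of the NMDA type of glutamate receptor, which carries calcium into neurons. Immediate-early genes are switched on within minutes of a stimulus, without new protein synthesis, in neurons by calcium and in vessel and glial cells by growth factors and stress signals. The amygdala is a group of nuclei of the temporal lobe that handles fear and social cues, and its medial part holds vasopressin neurons. The choroid plexus, the epithelium that secretes cerebrospinal fluid, lies in the ventricles and expresses transthyretin at a very high level.

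The array measured 35526 features, of which 15503 carry a gene symbol, and 20092 were well above background in treated or saline RNA on both amygdala arrays. A feature was called when the mean log2 ratio of both arrays reached 0.585 in size, a 1.5-fold change, with the same sign on both. By this rule 68 features were higher after the high dose (0.338% of those tested) and 8 were lower (0.0398%). Of the higher features 52 had a gene symbol and 18 exceeded 2-fold, and of the lower features 4 had a symbol and 2 exceeded 2-fold. Replicate 1 was the dimmest of the 24 arrays, with 59.8% and 56.8% of spots well above background in its channels, against 77.2% and 79.8% on replicate 2. Over all features tested the ratios of both arrays correlated at -0.0912, and at 0.449 once the dye effect of the 11 other pairs had been removed from each gene. Among the called features, which had to share a sign, the correlation was 0.939. The value after ± beside a mean is the SE of a pair mean, taken from the spread of all 24 arrays about their pair means, and its median was 0.076 over all features. Just inside the limit lay Dhrs7c at 0.59 and Klra5 at 0.59, and just outside lay Cldn1 at 0.56.

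**Figure D1:**
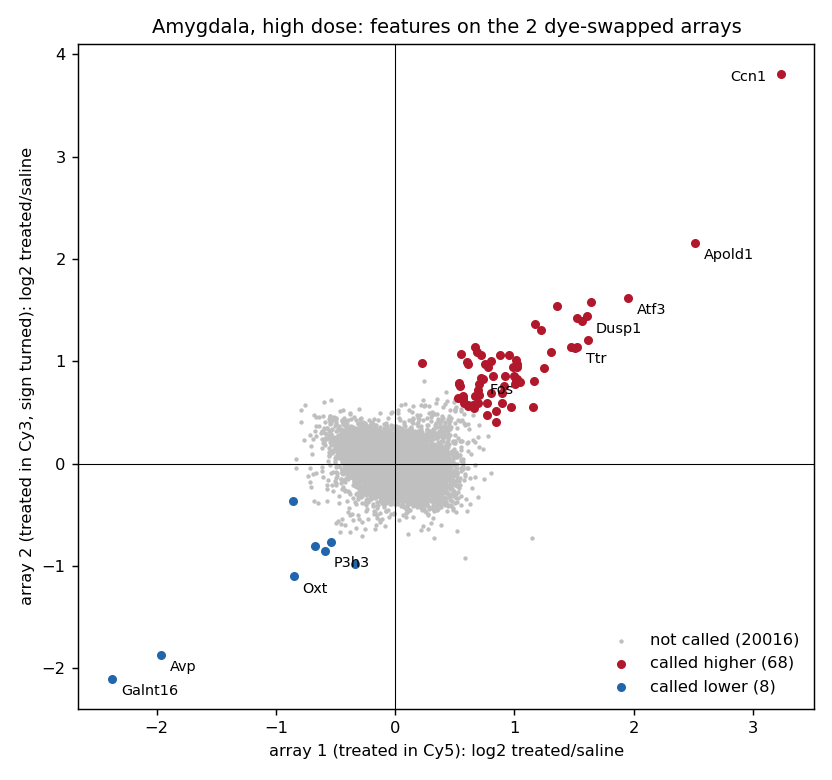
Log2 ratio of treated over saline RNA on replicate 1 (horizontal axis) against replicate 2 (vertical axis) for all 20092 features tested, with called features coloured. The called genes lie along the diagonal, from Galnt16 and Avp at the lower left to Ccn1 at the upper right.

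The stretches of DNA before the start of 5 early genes that were higher are shown because a known response element occurs in several of them. The sequences are the 250 bases before the RefSeq start on the GRCr8 assembly, written 5′ to 3′ on the gene's strand, with capitals marking matches on either strand to the cyclic AMP response element TGACGTCA or its first 6 bases, TGACGT. Ccn1 lies at chr2:237225690-237225939 (minus strand), Apold1 at chr4:169552349-169552598 (plus), Dusp1 at chr10:17184603-17184852 (plus), Btg2 at chr13:48087691-48087940 (minus) and Ier2 at chr19:40399123-40399372 (plus).
Ccn1: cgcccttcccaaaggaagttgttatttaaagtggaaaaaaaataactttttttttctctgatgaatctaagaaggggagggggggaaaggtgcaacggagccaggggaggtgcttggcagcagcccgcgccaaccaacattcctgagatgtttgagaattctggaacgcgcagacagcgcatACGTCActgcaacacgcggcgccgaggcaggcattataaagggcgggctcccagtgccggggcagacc
Apold1: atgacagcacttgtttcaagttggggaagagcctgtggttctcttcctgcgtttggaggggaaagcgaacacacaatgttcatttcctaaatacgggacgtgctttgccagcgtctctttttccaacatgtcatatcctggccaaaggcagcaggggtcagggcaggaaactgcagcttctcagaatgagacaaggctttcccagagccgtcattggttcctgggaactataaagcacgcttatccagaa
Dusp1: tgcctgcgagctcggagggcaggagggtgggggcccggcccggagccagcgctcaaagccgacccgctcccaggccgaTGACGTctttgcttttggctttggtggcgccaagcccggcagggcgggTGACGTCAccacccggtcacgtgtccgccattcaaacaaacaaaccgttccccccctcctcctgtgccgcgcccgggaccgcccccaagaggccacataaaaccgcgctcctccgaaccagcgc
Btg2: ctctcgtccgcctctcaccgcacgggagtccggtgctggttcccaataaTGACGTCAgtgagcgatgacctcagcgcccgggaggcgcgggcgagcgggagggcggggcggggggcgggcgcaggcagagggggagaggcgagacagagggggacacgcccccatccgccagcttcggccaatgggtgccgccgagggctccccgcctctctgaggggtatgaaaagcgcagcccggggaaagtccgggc
Ier2: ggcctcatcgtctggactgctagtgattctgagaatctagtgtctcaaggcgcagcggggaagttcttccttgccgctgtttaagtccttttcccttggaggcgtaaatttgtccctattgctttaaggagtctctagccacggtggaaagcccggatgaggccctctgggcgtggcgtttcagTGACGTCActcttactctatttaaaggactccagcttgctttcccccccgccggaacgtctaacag
The Dusp1, Btg2 and Ier2 windows hold the full element, the Ccn1 window holds the short form alone, and the Apold1 window holds neither. In windows of 300 bases (250 before and 50 after the start), matched for 37 of the 52 genes called higher, the full element was found in 3 (8.11%), against 1.83% of all 33469 promoters in the table. The short form, which every full element contains, was found in 6 (16.2%) against 7.94%. All 3 full elements and 5 of the 6 short ones lay among the 10 matched genes of the early-response lists described below. Matches to the CArG box (Itgb6 and Klra5, 5.41% against 1.64%), to the core of the interferon-stimulated response element (Klra5, 2.7% against 3.92%) and to the glucocorticoid response element (0 genes against 0.0149%) were also counted on both strands, and the 4 genes called lower, all matched, held none of the 5 motifs. A match describes these letters and is not evidence of binding.

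The 3 highest ratios among genes with a symbol after the high dose belonged to early-response genes. The lists of early transcription factors, synaptic effectors, kinase feedback, growth arrest, vascular response and inflammation held 108 tested genes, of which 15 were called higher and 0 lower. Most of their members did not reach the limit, and the median of the 108 was 0.04 against 0.00 over all features tested. The 15 called genes are described first. Ccn1, which encodes a secreted matrix protein of vessel and wound responses and is named Cyr61 in the file, led the array with log2 ratios of 3.24 and 3.81, a mean of 3.52 ± 0.12 or 11.5-fold, at its probe at chr2:243811128-243811187 (rn3). A second Ccn1 probe gave 1.88, so the direction was shared and the size was not, and with the scanner's processed signals the mean was 4.30. Apold1, an early gene of vascular endothelium, gave 2.52 and 2.16 (mean 2.34 ± 0.08). Atf3, a stress-induced transcription factor, gave 1.95 and 1.62 (mean 1.79 ± 0.07). On each of these genes both arrays lay far above the array spread.

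Feedback regulators and repressors of growth formed the next group. Dusp1, a phosphatase that switches off MAP kinases, gave 1.61 and 1.44 (mean 1.52 ± 0.09, 2.88-fold). Btg2, an antiproliferative gene, gave 1.53 and 1.42. Depp1, a gene induced by FOXO factors, gave 1.62 and 1.21. The means of these 3 genes (1.52, 1.48 and 1.42) differed by little more than their SE, so their order is not settled.
Klf4, a zinc-finger factor active in endothelium, gave 1.51 and 1.13, and its relative Klf2 gave 1.02 and 0.82. Ier2, a nuclear early-response protein, gave 0.999 and 0.857. Adamts1, a secreted protease, gave 0.88 and 1.06. The chemokine Ccl2, the only called member of 8 inflammatory genes tested, gave 0.99 and 0.94.
Smaller ratios were found for Sik1, a salt-inducible kinase that restrains the coactivators of CREB (0.55 and 1.07), for Cebpd, a factor of the acute-phase response (0.71 and 0.78), and for Gadd45g, a growth arrest and DNA damage gene (0.66 and 0.54). Fos, the reporter most often used for neuronal activation, was among these smaller responses, at 0.72 and 0.84 (mean 0.78 ± 0.09, 1.72-fold).

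Several classical reporters of neuronal activity did not reach the limit. Egr1, a zinc-finger early factor, gave 0.01 and -0.01, and Arc, a synaptic early gene that controls glutamate receptor traffic, gave 0.08 and 0.15. Egr2 gave -0.14 and -0.27, and the neurotrophin gene Bdnf gave -0.11 and -0.13. With an SE of 0.07 on each, the means of Egr1, Arc and Bdnf lay within 2 SE of 0, and that of Egr2 lay below 0 by about 3 SE.
Lowest among the early lists were Sox18, an endothelial factor (-0.38 and -0.50), Ptgs2, the inducible cyclooxygenase (-0.15 and -0.40), and the repressor Bhlhe40 (-0.17 and -0.28). Jun (0.58 and 0.39) and Junb (0.24 and 0.62), partners of Fos in the AP-1 factor, were positive on both arrays without being called. Nr4a1, a nuclear receptor induced early, had a usable spot on replicate 2 only, at 0.88, and Npas4 was too dim to test. In the list of 35 early transcription factors tested, 6 were higher, 0 lower and 22 positive on both arrays, with a median of 0.12, and of 23 synaptic effectors 1 was higher (Sik1), with a median of -0.01. For comparison, 4126 of the 20092 features were positive on both arrays and 3642 negative.

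The same early genes were examined in the 5 other regions, on arrays that the amygdala values did not use but from the same rats. Over those regions 164 of 21419 features tested were higher (0.766%) and 148 lower (0.691%) by limma on pair means with Benjamini-Hochberg adjustment, while 2358 had an unadjusted p under 0.05. Of the 15 early genes 11 passed as higher there, including Dusp1 (adjusted p = 0.000627 by limma), Gadd45g (0.00221), Klf2 (0.00313), Apold1 (0.00411), Klf4 (0.00497) and Ccn1 (mean 2.51, adjusted p = 0.0156). Atf3 missed the threshold (adjusted p = 0.0868), ranging from -0.10 in midbrain to 2.87 in cortex. Cebpd (0.0576), Adamts1 (0.175) and Ccl2 (0.335) missed it as well.
In size the amygdala took a middle to high place. Of the 15 genes 14 had a larger ratio in cortex than in amygdala, whereas the amygdala exceeded midbrain and hippocampus in 15, hypothalamus in 14 and ventral striatum in 9. Ccn1 gave 4.16 in cortex, 3.94 in ventral striatum, 2.11 in hippocampus, 1.69 in hypothalamus and 0.65 in midbrain. By limma the difference between amygdala and the other regions passed for 0 of these 15 genes, and 0 had an unadjusted p under 0.05, the nearest being Dusp1 (difference 0.52 ± 0.24, unadjusted p = 0.0561 by limma). With 1 amygdala value that test assumes it to vary like the other regions, which themselves spread widely for these genes. Amygdala and midbrain were scanned on the same day, and their difference was 2.87 for Ccn1, 0.97 for Dusp1 and 1.14 for Depp1.

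Genes of the choroid plexus formed the second group that was higher. All 10 tested members of the choroid plexus and ependyma list were positive on both arrays, 8 were called, and their median was 0.89. Sostdc1, a secreted inhibitor of BMP and WNT signals, gave 1.64 and 1.58 (mean 1.61 ± 0.15). Ttr, the carrier of thyroid hormone and retinol in cerebrospinal fluid, gave 1.53 and 1.15 (mean 1.34 ± 0.08, 2.53-fold). Otx2, the homeobox factor that specifies the plexus, gave 1.17 and 1.36, and its second probe gave 0.58.
Transport genes of the same epithelium had similar ratios. The folate receptor Folr1 gave 0.80 and 1.01, the potassium channel Kcnj13 0.92 and 0.86, and the water channel Aqp1 1.01 and 0.78. The chloride channel protein Clic6 gave 0.75 and 0.97 and the anti-ageing hormone and coreceptor Kl (klotho) 0.70 and 0.72. Slc4a5, a bicarbonate transporter, and Foxj1, the master factor of motile cilia, were positive on both arrays at means of 0.52 and 0.48 without reaching the limit.
The signal was summed over the 9 list members with a level on every array. The sum was 113219 to 122791 intensity units in treated RNA and 40968 to 55206 in saline RNA. These ranges did not overlap, but each spans only the 2 arrays of 1 pair, counted as 1 replicate. At the low dose the same sum was 57584 to 58329 in treated and 48776 to 50725 in saline RNA, again without overlap. Such gaps were common at that dose. The microglial sum was 71518 to 71955 in treated and 65983 to 68773 in saline RNA. The blood cell, meningeal, cortical, hippocampal, striatal and hypothalamic lists did not overlap there either. The astrocyte, oligodendrocyte, endothelial, thalamic, amygdala neuron and ribosomal lists did overlap. At the high dose the hypothalamic neuron list did not overlap either, at 3673 to 4098 in treated and 5403 to 6171 in saline RNA. The sums are of linear signal, so the brightest genes weigh most. In the choroid plexus sum Ttr stood at log2 levels of 16.36 and 16.61 in treated and 14.83 and 15.47 in saline RNA. In the hypothalamic list only Avp and Oxt were called, and the median ratio was -0.05. In bulk tissue more cells of a type and more RNA per cell cannot be told apart, and the number of plexus cells in the dissected pieces was not measured. Their part in the other results was not tested.

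In the other regions the list was much dimmer, which limits what a ratio near 0 can show. Its summed signal in saline RNA of the high-dose arrays was 1726 to 1832 in cortex, 2177 to 2618 in ventral striatum, 3037 to 3832 in midbrain, 9994 to 11127 in hippocampus and 18088 to 18399 in hypothalamus. Of the 10 members, 7 were well above background in cortex, 7 in hippocampus, 8 in hypothalamus, 7 in midbrain and 7 in ventral striatum.
Over all 10 members with a value, dim ones included, the median ratio of the list was 0.00 in cortex, -0.17 in hippocampus, -0.41 in hypothalamus, -0.02 in midbrain and 0.00 in ventral striatum. Ttr was at -2.62 in hippocampus, -2.001 in hypothalamus, 0.12 in cortex, -0.18 in midbrain and 0.78 in ventral striatum, and Sostdc1 was at -1.35 in hippocampus and -1.19 in hypothalamus. The difference between amygdala and the mean of the other regions was tested over 18824 features, of which 15 were higher (0.0797%) and 1 lower (0.00531%) by limma with Benjamini-Hochberg adjustment, with 889 at an unadjusted p under 0.05. Of 6 list members that could be tested, 2 passed, Folr1 (difference 1.05 ± 0.14 SE, adjusted p = 0.0336 by limma) and Aqp1 (0.99 ± 0.14, adjusted p = 0.04998 by limma). Ttr did not pass (difference 2.12 ± 1.01, adjusted p = 0.976 by limma), with the other regions spread widely around their mean of -0.78.
In saline RNA the list was already higher in the amygdala than in the other regions, by a median of 1.09 log2 units, in 10 of 10 genes. The higher differences were sensitive to the processing, and 0 of them passed with the scanner's own processed signals or with the deposited table, where the adjusted p of Krt18, described below, was up to 0.518 by limma. Each region may have lain on its own slide, in which case region and slide cannot be told apart for such levels. Amygdala and midbrain were scanned on the same day, apart from the other regions. Meningeal and fibroblast markers were also higher in amygdala saline RNA (median 1.61, highest of the 6 regions in 12 of 12 genes), yet after MK-801 their median ratio was 0.08, with 0 of 12 called, from the transporter Slc6a13 at -0.20 to the growth factor Igf2 at 0.42.

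**Figure D2:**
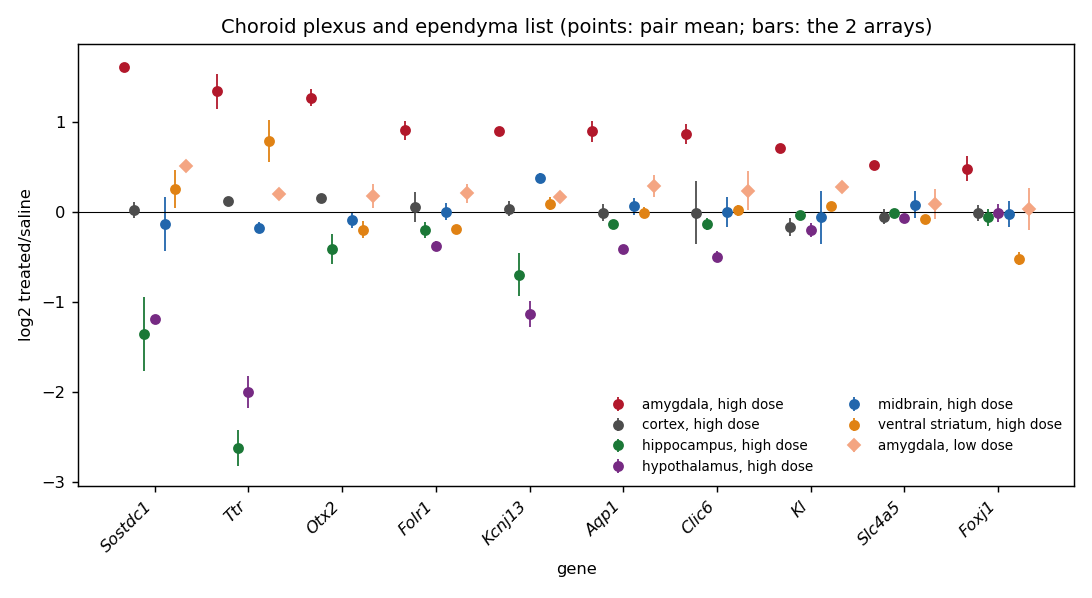
Log2 ratio of treated over saline RNA for the choroid plexus and ependyma list. Points are pair means and bars reach to the 2 arrays, for the amygdala at both doses and the 5 other regions at the high dose. At the high dose the amygdala means run from 0.48 for Foxj1 to 1.61 for Sostdc1, while Ttr reaches -2.62 in hippocampus.

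Outside all lists, 28 further named genes were higher, at a median of 0.79 in the amygdala. Their medians in the other regions lay between -0.10 in hypothalamus and 0.07 in midbrain, and 18 of them had their highest saline level in the amygdala. In the choroid plexus list this held for 8 of 10 genes. The lists do not name every gene of a cell type, so the 28 may include plexus genes, which was not tested. The 28 genes were chosen for a high amygdala ratio, so smaller ratios elsewhere follow in part from the choice. Only 14 of the 28 were bright enough in the other regions for the difference to be tested. Cltrn, the transmembrane protein collectrin, named Tmem27 in the file, gave 1.36 and 1.54, against ratios of -0.61 to 0.13 in the other regions. Kcne2, an accessory subunit of potassium channels, gave 1.02 and 0.97, and the open reading frame C8h11orf97 gave 1.02 on both arrays. The secretoglobin Scgb1c1 gave 1.17 and 0.81. Steap1, a metalloreductase, gave 1.02 and 0.94, and Mfrp, a frizzled-related membrane protein, gave 0.72 and 1.06.
Of those 14 genes, 8 passed the test against the other regions, and of all 28, 2 (Chmp1b2 and Rsf1) passed as higher in the other regions. Krt18, an epithelial keratin, gave 0.80 and 0.69 in the amygdala, while it was lower over the other 5 regions (mean -0.18, adjusted p = 0.0352 by limma). Its difference of 0.93 ± 0.09 had the smallest adjusted p among the higher genes (0.00943 by limma).
Enpp2, the enzyme autotaxin that makes lysophosphatidic acid, differed by 0.93 ± 0.12, and Itgb6, an integrin of epithelia, by 0.92 ± 0.12. Cln6, an endoplasmic reticulum protein lost in a lysosomal storage disease, differed by 0.94 ± 0.12. Its arrays stood apart at 1.15 and 0.55. Replicate 1 lay above replicate 2 in every other region as well, as in cortex at 0.32 and -0.24. Crb3, a polarity protein, differed by 0.71 ± 0.09, the iodide transporter Slc5a5 by 0.69 ± 0.08 and the small membrane protein Smim22 by 0.85 ± 0.12.
Cox8b, a subunit of cytochrome oxidase, differed by 1.13 ± 0.15 at the probe used, but its 2 other probes, not well above background on both arrays, gave 0.10 and 0.06. The second probes of F5 (-0.07 against 0.78) and Pla2g5 (0.18 against 0.83), also dim, did not share the ratio of the brighter probe either. The other genes in no list, among them the homeobox gene Msx1 (0.68), the growth factor Mdk (0.60), the endothelial repressor Bcl6b (0.62) and the collagen Col8a1 (0.66), lay between 0.59 and 0.84. Ace, the angiotensin-converting enzyme, passed the difference at 0.55 ± 0.08 while lying just under the limit of the call in the amygdala itself (0.55).

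The 68 higher features were then set against the tests across regions. Of the 68, 48 could be tested in the other regions, where 21 passed as higher and 1, Krt18, as lower, while 13 passed the difference from the other regions and 0 passed both as higher. The 21 had a median of 0.80 in amygdala and 0.75 over the other regions, and the 13 had 0.86 and -0.08. The features were called on the amygdala values that the difference also uses, so these medians and counts follow in part from the choice. Of all 68, 45 had their largest ratio in the amygdala, which the choice itself favours. Of 66 with values, 28 were below 0 in both hippocampus and hypothalamus. The shares of all features tested with these patterns were not counted. In saline RNA the level was highest in the amygdala for 34 of 68 (50%), against 16.3% of all features tested. Among the 21 that passed in the other regions this held for 2, and among the 13 that passed the difference for 6.

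Among the genes that were lower, vasopressin stood out. Avp, which encodes the peptide vasopressin and its carrier neurophysin, gave -1.96 and -1.87 (mean -1.91 ± 0.06), so treated RNA held 3.77-fold less signal. The log2 level of Avp in saline RNA was 11.37 and 10.95 on the high-dose arrays and 11.07 and 10.89 on the low-dose arrays. In treated RNA it was 9.41 and 9.08 after the higher dose, and 9.44 and 9.12 after the lower. All 4 saline values exceeded all 4 treated values by more than 1 log2 unit. They are not 4 replicates, since each pair counts as 1 and both doses may share saline RNA. The number of vasopressin cells in the dissected pieces was not measured.
In the other regions saline levels of Avp were lower than in the amygdala, between 7.85 and 9.28, hypothalamus included, and the ratio was -0.22 in hypothalamus, -0.01 in cortex, 0.00 in hippocampus, -0.01 in midbrain and 0.18 in ventral striatum. The difference between amygdala and the other regions was -1.90 ± 0.12 (adjusted p = 0.00027 by limma), the 1 lower gene that passed, and it stayed past the threshold in all 16 alternatives tried. Against midbrain, scanned on the same day, the difference was -1.91.

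Oxt, the oxytocin gene next to Avp, gave -0.85 and -1.10 (mean -0.98 ± 0.07). The difference from the other regions was -1.09 ± 0.18 and did not pass (adjusted p = 0.111 by limma), with 0.55 in ventral striatum. With the scanner's processed signals the Oxt mean was -2.04. Saline levels of Oxt were 7.90 and 8.03 on the high-dose amygdala arrays and 9.47 and 9.56 on the high-dose hypothalamus arrays. The probes are shown because the coding regions of both genes are alike and share a genomic neighbourhood. They are 60 bases long and lie in rn3 at chr3:118110655-118110714 and chr3:118110779-118111063 (both Avp, minus strand) and at chr3:118100336-118100479 (Oxt, plus strand). The second and the last probe span more genome than their length, 285 and 144 bases.
Avp A_44_P254016: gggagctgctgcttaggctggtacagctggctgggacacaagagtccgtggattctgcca
Avp A_44_P452171: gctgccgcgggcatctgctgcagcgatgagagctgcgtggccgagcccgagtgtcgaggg
Oxt A_44_P1020655: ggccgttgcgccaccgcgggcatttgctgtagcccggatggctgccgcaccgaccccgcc
The best ungapped alignment placed 35 matching bases between the second Avp probe and the Oxt probe and 20 between the first Avp probe and the Oxt probe, and 10175 bases separated the latter pair. The first Avp probe gave the values above, and the second gave -1.40 and -1.39. Both Avp probes were thus lower on both arrays. Of 9 tested markers of hypothalamic neurons, all but Avp and Oxt lay between -0.15 and 0.05.

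Galnt16, a glycosyltransferase that puts the first sugar of mucin-type chains on proteins (Galntl1 in the file, probe at chr6:104363509-104367590, rn3), was lowest of all features at -2.38 and -2.10 (mean -2.24 ± 0.09, 4.72-fold less). It was lower in every region, from -1.78 in midbrain to -2.13 in hippocampus (mean of the other 5 regions -1.93, adjusted p = 1.41e-07 by limma). P3h3, a collagen prolyl hydroxylase, gave -0.59 and -0.85, with -0.63 to -0.92 in the other regions (adjusted p = 2.31e-05 by limma). Its second probe, not well above background on both arrays, gave -0.13. Of the 8 features called lower, 5 passed as lower in the other regions.

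The same tissue was measured at the low dose. At 0.08 mg/kg 18 features were called higher and 18 lower of 22765 tested (0.0791% each). Of the 68 features higher at the high dose, 51 were positive on both low-dose arrays, 66 had a smaller mean than at the high dose and 6 were also called, with a median of 0.25 against 0.86. Features chosen at 1 dose tend to be smaller at the other by the choice alone, and the 18 features called higher at the low dose had a median of 0.86 there and 0.28 at the high dose, with 14 of them smaller at the high dose. The counts therefore do not order the doses. These values are set side by side without a test, since both doses may share saline RNA.
Ccn1 stood at 1.61 at the low dose against 3.52, Apold1 at 0.96 against 2.34 and Dusp1 at 0.65 against 1.52. Atf3 was 0.36 and -0.08 on the low-dose arrays, and Fos was -0.50 and -0.03, so neither was raised on both low-dose arrays. Among the choroid plexus genes the low-dose median was 0.20, with Ttr at 0.22 and 0.17. Cxcl13, a chemokine that draws B cells, was nearly as high at the low dose (0.79 and 0.66) as at the high dose (0.82 and 0.86).
The genes that were lower behaved in 3 ways. Avp and Oxt were about as low at the low dose (-1.63 and -1.77, and -1.04 and -1.08) as at the high dose. Galnt16 was less reduced (-0.96 and -0.60). P3h3 was positive (0.54 and 0.31).

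Receptor genes, the drug's target among them, were listed as well. Of 20 glutamate receptor genes tested, 0 were called, and their median was 0.00. At a share of 0.338% of all features called higher and 0.0398% lower, a list of this size would usually hold no called gene, so the count of 0 here and in the lists that follow says nothing particular about them. The obligatory NMDA subunit Grin1 was at -0.06 ± 0.06, Grin2a at 0.05, Grin2b at -0.03, Grin2c at -0.05 and Grin3a at 0.02. Grin3b was too dim to test and Grin2d gave no value. The list ran from Grm2 at -0.12 to Gria1, an AMPA receptor subunit, at 0.18.
Other neuronal lists are given by their extremes. Of 15 genes of GABA signalling 0 were called, from Gad1 at -0.21 and Gabra5 at -0.15 to Gabrb1 at 0.09 and Gad2 at 0.12, the Gad genes encoding the enzymes that make GABA. Of 20 monoamine and acetylcholine receptors 0 were called, from Chrna7 at -0.19 and Htr3a at -0.14 to Drd5 at 0.15 and Htr2c at 0.17. Of 24 genes of the postsynaptic density and its kinases 0 were called, with a median of -0.02, the scaffold genes Shank2 and Shank3 at -0.14 and the kinase subunit Prkaca at 0.10.
Of 12 clock genes 0 were called, from Cry2 at -0.15 to Tef at 0.09, with Per1, a clock gene that is also inducible, at -0.08 and 0.24. Of 18 heat shock genes 0 were called, and the small chaperone Hspb1 was highest at 0.50 and 0.20.
Of 32 amygdala neuropeptides and receptors 0 were called. The opioid precursor Pdyn was highest at 0.52 and 0.25, followed by Grp at a mean of 0.23. The calcitonin receptor Calcr was lowest at a mean of -0.38, followed by the galanin gene Gal at -0.29. Of 16 glucocorticoid-responsive genes 0 were called, with Errfi1 at 0.42 and Tsc22d3 at 0.40, and 8 were positive on both arrays.
Interferon-stimulated genes had a median of -0.07, with 9 of 24 negative on both arrays and 2 positive, beside 3642 negative and 4126 positive of all 20092 features, and 0 were called. Isg15, a ubiquitin-like protein, was at -0.34 and Ifit1, an RNA sensor, at 0.17. Irf7, the factor that amplifies the interferon response, gave -0.44 and -0.54, and it was among the 9 of 24 that passed as lower in the other regions, where 0.691% of all features did. Rtp4 was at 0.06 and -0.22 in the amygdala against a mean of -0.53 over the other regions, a difference that did not pass (0.46 ± 0.07, adjusted p = 0.111 by limma).

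**Figure D3:**
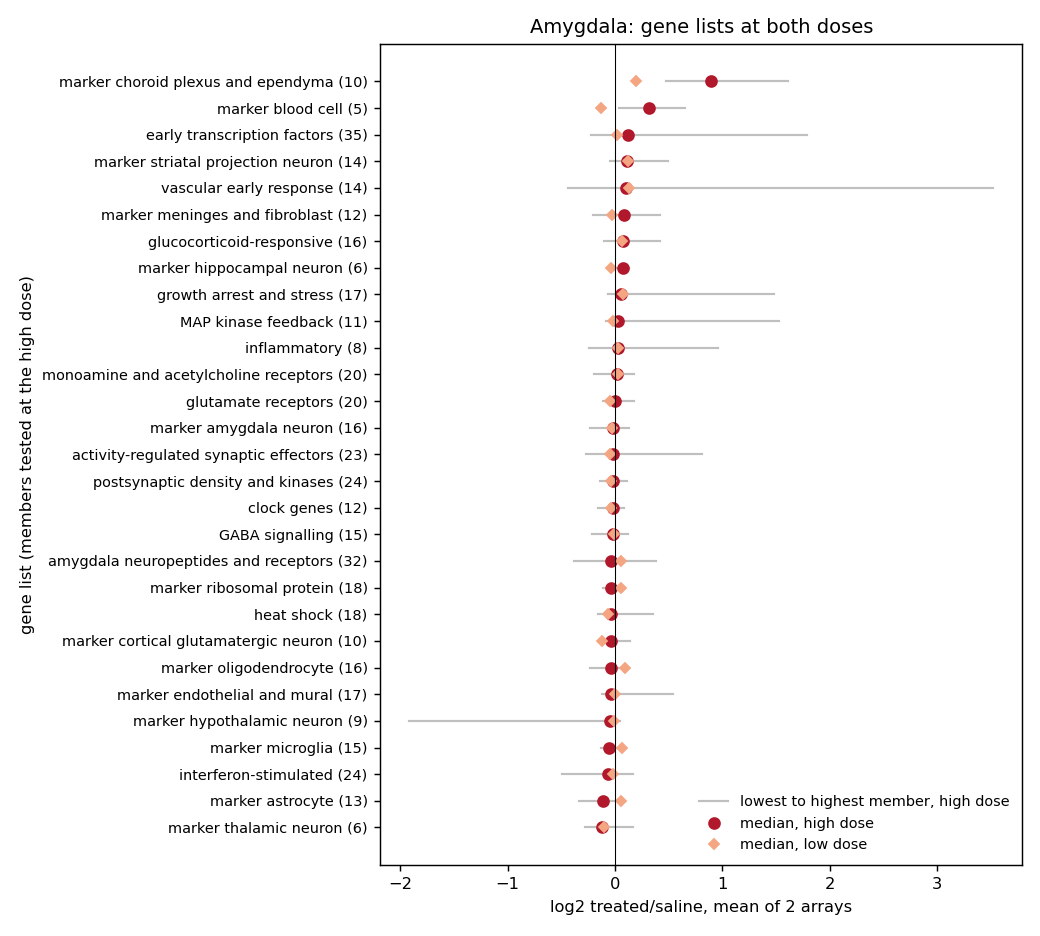
Log2 ratio of treated over saline RNA in the amygdala for each gene list. A line runs from the lowest to the highest member at the high dose, and the list medians at the high and the low dose are marked. The choroid plexus list has a median of 0.89 at the high dose, and the medians of most other lists lie near 0.

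Markers of cell types were read in saline RNA and in the ratios. In saline RNA the amygdala neuron list was 0.45 log2 units higher than in the other regions, in 12 of 18 genes, and 5 of them had their highest level there. Microglial markers were raised about as much (0.40, in 16 of 16 genes, highest in the amygdala in 13), as were cortical neuron markers (0.43, in 10 of 11), so the levels do not set the labelled tissue apart. After treatment 0 of 16 tested genes of that list were called, with a median of -0.01 and a range from Rspo2 at -0.23 to Wfs1 at 0.13. Markers of striatal projection neurons had a median of 0.11, with 10 of 14 positive on both arrays and 0 called, led by the adenosine receptor Adora2a (0.46 and 0.53, beside 0.49 and 0.48 on the low-dose arrays). Their summed level overlapped between groups, at 37133 to 47831 in treated and 35409 to 45921 in saline RNA. Within each array treated RNA was slightly above saline RNA, by 0.07 and 0.06 log2 units.
Of 5 blood cell markers tested, 3 were positive on both arrays, with a median of 0.32, and the globin gene Hbb was called at 0.53 and 0.77. At the low dose Hbb was -1.05 and -0.10, and the summed level of the list overlapped between groups at the high dose, at 71721 to 89455 in treated and 59582 to 92859 in saline RNA. In the lists of astrocytes (median -0.11, Sox9 lowest at -0.34), microglia (-0.05), oligodendrocytes (-0.04), endothelial and mural cells (-0.04), thalamic neurons (-0.12), cortical neurons (-0.04), hippocampal neurons (0.07) and ribosomal proteins (-0.03), 0 members were called. Abcg2, an efflux pump of the vessel wall that epithelia also use, was the highest endothelial marker at 0.55 and 0.54. The part of any of these cell types in the results was not tested.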

How the data were processed

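Total RNA of saline and MK-801 rats was hybridised to 2-colour 4x44K rat oligonucleotide arrays, per the labels. Spot intensity values with local background were deposited as scanner output of Agilent Feature Extraction 9.5.3.1, per the file headers and the submitters' processing notes. The authors' deposited values were log10 ratios of treated over saline RNA, which matched the log10 ratios of the scanner's processed signals for 100% of values, with column medians of -0.03 and 0.01 on the amygdala arrays. Its scale and direction were read from that match, and no further centring was seen.

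Mean signals were background-corrected (normexp, offset 50) and loess-normalised in limma 3.58.1 under R 4.3.3 with data.table (version 1.17.8). Control spots had weight 0 in loess, outlier spots were removed and saturated spots kept. Spots of 1 probe were averaged, and the brightest of a gene's probes was used. Of 41012 probes, 10735 were named through their accession in RefSeq (GRCr8), 117 through another accession, 5537 by symbol and 3705 by synonym, and 20918 kept the file's name. Probe coordinates are those of the files (rn3), and exons or UTRs are not stated because no annotation of that build was used here. An outlier spot left 403 features with a single amygdala array, and these were not tested.

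A call needed a 1.5-fold mean with the same sign on both arrays. The amygdala minus the mean of the other 5 regions, and those 5 regions against 0, were tested by limma on high-dose pair means, with regions of the same rats as the units, with Benjamini-Hochberg adjustment at 0.05, for features with values in at least 4 other regions. The number of arrays limits the precision. Replicate numbers mark dye orientation and do not pair samples. Scripts were tested on simulated data. Alternatives were the background correction, centring, the deposited table, probe choice, filter, fold limit, left-out arrays and regions, scan day and a replicate block.

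Named genes were the 15 highest and 15 lowest called, the 10 largest differences from the other regions in each direction, every called member of a list or otherwise the extremes of the list, and the NMDA subunits and usual activity reporters. Other genes are named after their values were seen. Some genes that meet the rule are not reported here. The members, lists and rules were chosen with earlier results of these data known.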

Additional observations from a re-analysis of the deposited data

Results flagged for a closer look

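For the 12 genes given here the high-dose ratio in the amygdala differed from that in the other 5 regions by limma with Benjamini-Hochberg adjustment. The lone amygdala value was assumed to vary like the other regions. Avp was lower by 1.90 log2 units (difference -1.90, adjusted p = 0.00027 by limma), and amygdala and other regions did not overlap. The other 11 were higher in the amygdala. The differences were 1.13 for Cox8b, 1.05 for Folr1, 0.99 for Aqp1, 0.94 for Cln6, 0.93 for Enpp2 and 0.93 for Krt18. They were 0.92 for Itgb6, 0.85 for Smim22, 0.71 for Crb3, 0.69 for Slc5a5 and 0.55 for Ace. Of these 11, the choroid plexus list holds Folr1 and Aqp1, and its summed signal also moved, as given above. Its part in the differences of the other 9 was not tested.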

How the results depend on the processing

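All 320 recomputed values of called named genes kept their sign. Values of genes that were not called could change sign, as for Dusp8 (0.25, lowest -0.13). The count of higher features (68) was 137 with the scanner's processed signals, 135 with the deposited table, 18 at 2-fold and 146 at 1.3-fold, and the 8 lower features became 40, 40, 2 and 42, and 17 with an offset of 16. All 68 were among the 137. Without an amygdala array the counts were 71 to 77 higher and 11 to 19 lower, with 57 to 66 of the 68 shared. The dye effect of the 11 other pairs was first removed from the remaining array. Single arrays without this step were not counted, and the differences with an amygdala array left out used it too. The 15 higher differences from the other regions became 1 with an offset of 16, 0 with processed signals and with the deposited table, 8 with median centring and with scan day as a block, and 32 without the filter on dim probes. The lower count (1) became 3 with scan day and 2 with the spread of both doses. With the replicate block 27 were higher and 2 lower (duplicate correlation -0.0319). Left-out arrays or regions gave 8 to 21 higher and 1 to 3 lower differences, the fewest higher without cortex (8) and ventral striatum (9). The other regions alone gave 92 to 138 higher and 80 to 132 lower, against 164 and 148, and 47 and 53 with median centring. Their lower count was 82 with processed signals and 80 with the deposited table. The cause was not tested. Avp passed under all 16 alternatives (adjusted p 1.48e-08 to 0.0367 by limma), whereas each of the 11 higher genes given here lost its call in 2 (Krt18) to 11 (Ace, Aqp1). The choroid plexus median ranged from 0.82 to 1.13. The effect of the dim replicate 1 on weak probes was not tested.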
